A study of Homo sapiens with 6 samples.

Results

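BCAP29 and BCAP31 encode B-cell receptor-associated proteins 29 and 31, a pair of related membrane proteins of the endoplasmic reticulum (ER). Their transcripts were taken as those that GENCODE release 44 assigns to either gene: 16 for BCAP29 and 14 for BCAP31, together 30 of 251612 annotated transcripts quantified in each library. BCAP29 was chosen because 1 of its exons had no estimated expression in any control library and some in every knockdown library, so all values of BCAP29 in this comparison are a description and carry no test. BCAP31 was taken as its paralogue and not for its own values.

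K562, a human erythroleukemia line, was transduced with a lentiviral pLKO.1 vector carrying a short hairpin RNA (shRNA) against Luciferase (shCtrl) or PCBP1 (shPCBP1), and both groups were selected with puromycin for 4 days. PCBP1 is a poly(C)-binding protein that binds C-rich RNA, regulates splicing and delivers iron in the cytosol. PolyA RNA was sequenced in 6 libraries, 3 in each group, and the comparison asked how RNA levels and exon use differ when PCBP1 is low. Each group carried 1 hairpin, no cloning step was described, and nothing in the labels says that the replicates were separate cultures, so p-values measure the spread between these libraries only.

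BAP31, the product of BCAP31, is an abundant ER membrane protein that binds newly made membrane proteins, helps to pass them on to ER export or to degradation, and is cut by caspase-8 in apoptosis. BAP29, the product of BCAP29, has a similar layout of transmembrane segments and a cytosolic coiled coil, and can pair with BAP31. Both carry a C-terminal lysine signal that returns proteins from the Golgi to the ER, and both are made in nearly all tissues.

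The libraries held between 67066747 and 140522444 estimated counts, and the 3 shCtrl libraries included the deepest ones. Expression was measured as TPM, a transcript abundance scaled by transcript length and library total, and as counts normalized by DESeq2 size factors. The erythroid genes GATA1 and HBE1 were present in all libraries, GATA1 between 202.6 and 217.4 TPM. The targeted gene PCBP1 stood at 40566, 38409 and 37799 normalized counts in shCtrl against 6625, 7277 and 7221 in shPCBP1, which was 18.1% of the control mean. Of 17095 genes tested, 17.7% were higher and 13.5% were lower in shPCBP1 at a DESeq2 adjusted p under 0.05, and 1.37% also had a mean over 10 normalized counts and a log2 fold change beyond 1 in either direction.

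The exon by which BCAP29 was chosen lies at chr7:107580646-107580864 (GRCh38/hg38, plus strand) and is 219 bases long. It was carried by a single annotated transcript, BCAP29-211 (ENST00000479917.5), which is 746 bases long and whose 3′ end is annotated as incomplete. It is a longer form of the usual exon 2 at chr7:107580759-107580864, which is 106 bases long, and both forms end at the same 5′ splice site and follow exon 1 with the same 5′ splice site at position 107580301. The long form begins at an upstream 3′ splice site (acceptor) and so adds 113 bases. These added bases were all 5′ UTR: the annotated start codon, at chr7:107580773-107580775, lies in the part that both forms share, and the 92 coding bases of exon 2 are the same in both. No ATG occurred in the 113 added bases, whose G and C content was 49.6%.

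The 30 intron bases before each acceptor are shown because the choice between them defines the long exon, and PCBP1 binds runs of C. Capitals mark runs of at least 3 C, and each window ends at the last intron base. The first is chr7:107580616-107580645, the second chr7:107580729-107580758 and the third chr7:107583852-107583881, which is used when exon 2 is skipped. The fourth is the acceptor of the start-codon exon of BCAP31, chrX:153723289-153723318 on the minus strand.
BCAP29 long exon 2: cctgaccggggtccgtgcttgccttCCCag
BCAP29 short exon 2: gcaagagaaaataagtgtttttccatttag
BCAP29 exon 3: tatacctaatataattgtattgctttacag
BCAP31 start-codon exon: acaagtCCCgtaccttttgtgCCCtgccag
The window of the long exon held 12 C, against 3 C before the short exon and 4 C before exon 3. Among 304528 annotated acceptors of GENCODE release 44, read on the strand of the transcript, the median window held 7 C, 18.2% held at least 12 C and 93.1% held at least 3 C. The motif CCC, searched on the transcribed strand only and with overlapping matches counted once, was in the long-exon window and in 37.6% of all acceptor windows, and was not in the windows of the short exon and exon 3. The BCAP31 window held 11 C, a number that 24.0% of acceptors reached, and CCC at 2 places. A match describes the letters of the window and says nothing about binding.

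BCAP29-211 had 0, 0 and 0 TPM in shCtrl replicates 1, 2 and 3 and 2.03, 3.04 and 4.81 TPM in shPCBP1 replicates 1, 2 and 3. These values rest on 68.3, 96.1 and 126.9 estimated counts in shPCBP1 and none in shCtrl. All 3 knockdown libraries lay above all 3 controls, and the knockdown libraries differed among themselves by more than a factor of 2, with the highest value in the shallowest library. Set against the transcripts that join exon 1 directly to exon 3, the long exon made up 13.0%, 20.2% and 28.6% of TPM in shPCBP1 (mean 20.6% ± 7.81 (SD, n = 3)) and 0% in shCtrl.

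**Figure D1:**
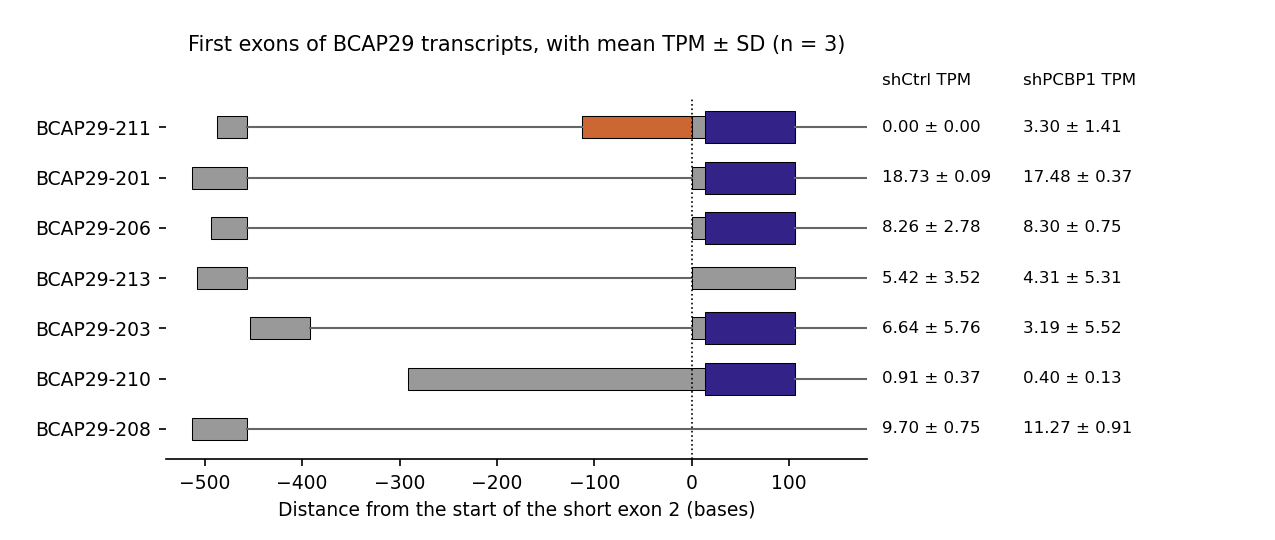
First exons of 7 BCAP29 transcripts drawn to scale against the distance in bases from the start of the short exon 2, with the mean TPM ± SD over 3 libraries of each group at the right. Tall boxes mark annotated coding sequence, low boxes untranslated or noncoding sequence, and the orange box the 113 bases that only the long exon 2 adds after splicing; BCAP29-211 stood at 0.00 TPM in shCtrl and 3.30 in shPCBP1, and BCAP29-210 covers the same bases without splicing there.

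That percentage compares the long exon with skipping of exon 2 and leaves out the short exon 2, which was the more abundant form. The 6 transcripts that join exon 1 to the short exon 2 summed to 33.3, 36.6 and 32.8 TPM in shCtrl and 40.8, 32.6 and 27.3 TPM in shPCBP1, and the groups overlapped. As a share of all TPM that leaves exon 1, the short form was 74.1%, 78.2% and 76.1% in shCtrl and 72.3%, 68.4% and 61.9% in shPCBP1, and here the groups did not overlap. That total includes the long form, which the choice of the exon fixed at 0 in shCtrl and above 0 in shPCBP1. The choice by itself therefore lowered the share of the short form in shPCBP1, and a drop beyond this was not tested. Of the long and short forms together, the long form was 4.74%, 8.53% and 14.98% in shPCBP1 (mean 9.42% ± 5.18 (SD, n = 3)). Of all transcripts with exon 2, including those of the readthrough gene DUS4L-BCAP29, it was 3.92%, 5.63% and 11.5%. Of all BCAP29 TPM it was 2.89%, 4.23% and 7.77%. Each of these shares was 0% in shCtrl because the transcript was at 0 there, which the choice of the exon fixed, and the mean in shPCBP1 ranged from 4.96% to 20.6% with the denominator.

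The 0 in shCtrl was the estimate of 1 transcript model, and another model that covers the same bases was above 0. BCAP29-210, whose first exon runs unspliced through the 113 bases, had 0.488, 1.21 and 1.03 TPM in shCtrl and 0.321, 0.552 and 0.339 in shPCBP1. Summed over both transcripts that cover these bases, the level was 0.488, 1.21 and 1.03 TPM in shCtrl and 2.35, 3.595 and 5.15 TPM in shPCBP1, a ratio of the means of 4.07. In estimated counts this was 12.5, 20.2 and 28.1 in shCtrl and 73.8, 105.0 and 131.3 in shPCBP1, and the groups did not overlap on either scale. The level was also taken as a share of all BCAP29 transcripts that cover exon 2. This share was 1.09%, 3.14% and 2.30% in shCtrl and 5.39%, 7.75% and 15.5% in shPCBP1. The sum and this share include the long-exon transcript, which the choice of the exon fixed at 0 in shCtrl and above 0 in shPCBP1. The choice by itself therefore raised both in shPCBP1, and a rise beyond this was not tested. BCAP29-210 alone had a mean of 0.909 TPM in shCtrl and 0.404 TPM in shPCBP1, and its groups overlapped.

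**Figure D2:**
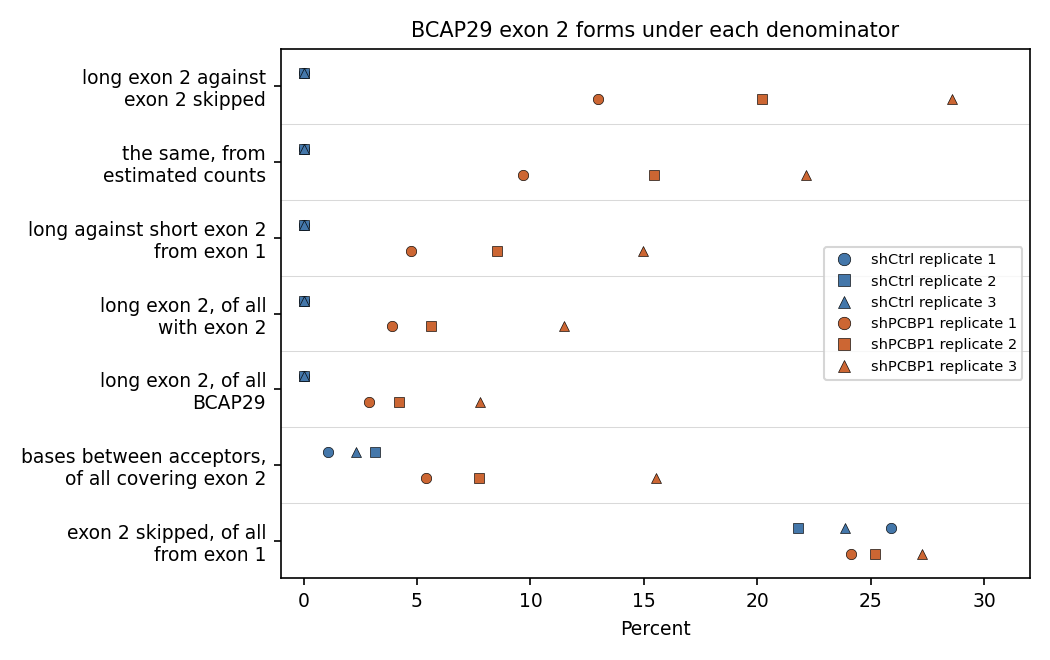
Percent of TPM (of estimated counts in the second row) held by each exon 2 form of BCAP29 under 7 definitions, with 1 point per library. The long exon 2 stood at 0% in all shCtrl libraries and reached 28.6% against skipping but 14.98% against the short exon 2, while the share with exon 2 skipped overlapped between the groups.

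Exons at 0 in 1 group were rare but occurred in both directions. Among 26304 annotated cassette exons with at least 1 TPM in all, 6 were at 0 in every shCtrl library and over 5% in every shPCBP1 library (0.0228%), and 5 showed the opposite (0.019%). Among 9517 pairs of acceptors that share the preceding 5′ splice site and the end of the exon, the longer exon was at 0 in every shCtrl library and over 1% in every shPCBP1 library in 2 pairs (0.021%), 1 of them BCAP29, and showed the opposite in 12 pairs (0.126%). Since the exon was picked for this pattern, nothing is read from these shares.

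Skipping of exon 2 removes the usual start codon. Its main transcript, BCAP29-208 (ENST00000465919.5), is annotated to start at chr7:107594044-107594046, in the fourth exon of the main isoform, which leaves 441 of 723 coding bases in the same frame. BCAP29-208 had 10.6, 9.21 and 9.32 TPM in shCtrl and 12.3, 10.9 and 10.6 TPM in shPCBP1, with the lowest knockdown value just above the highest control value. BCAP29-216, which also skips exon 2 and has no annotated coding sequence, had 1.05, 0.978 and 0.955 TPM in shCtrl and 1.32, 1.16 and 1.39 in shPCBP1. As a share of all TPM that leaves exon 1, skipping was 25.9%, 21.8% and 23.9% in shCtrl and 24.1%, 25.2% and 27.3% in shPCBP1, and these ranges overlapped.

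The main isoform, BCAP29-201 (ENST00000005259.9), encodes the reference protein and had 18.6, 18.8 and 18.7 TPM in shCtrl and 17.3, 17.9 and 17.2 TPM in shPCBP1. The control libraries lay close together and above all knockdown libraries. Its share of BCAP29 TPM was 24.5%, 28.1% and 25.6% in shCtrl and 24.6%, 24.9% and 27.8% in shPCBP1, which overlapped. Its share of BCAP29 estimated counts was 59.6%, 61.4% and 59.4% in shCtrl and 57.3%, 58.4% and 58.8% in shPCBP1, which did not overlap. BCAP29-206, with an added exon before the last one, had 5.56, 8.11 and 11.1 TPM in shCtrl and 8.68, 8.79 and 7.44 TPM in shPCBP1. BCAP29-215, an incomplete model that starts within exon 3 and ends in another last exon, had 17.5, 14.4 and 14.7 TPM in shCtrl and 11.3, 11.9 and 14.4 TPM in shPCBP1.

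BCAP29-212 is annotated as a target of nonsense-mediated decay, the pathway that removes transcripts with early stop codons. It lacks the third coding exon, chr7:107593955-107594105, whose 151 bases are not a multiple of 3, and had 1.64, 1.15 and 1.37 TPM in shCtrl and 2.07, 2.05 and 2.07 TPM in shPCBP1. The share of BCAP29 TPM that skipped this exon, among transcripts with both neighbouring exons, was 2.52%, 2.19% and 2.06% in shCtrl and 3.73%, 3.16% and 3.61% in shPCBP1. The groups did not overlap in level or in share. BCAP29-205, also annotated for decay, was at 0 in 5 libraries and at 1.30 TPM in shPCBP1 replicate 1.

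The short BCAP29 models BCAP29-203 and BCAP29-213 were unstable between libraries of 1 group. BCAP29-203, a 474-base model with its own first exon, had 9.80, 0 and 10.1 TPM in shCtrl and 0, 9.56 and 0 TPM in shPCBP1. BCAP29-213, a 512-base model with a retained intron, had 6.95, 7.92 and 1.39 TPM in shCtrl and 10.2, 2.69 and 0 TPM in shPCBP1. BCAP29-203 was thus at 0 in some libraries and near 10 TPM in others of either group, and BCAP29-213 ranged from 10.2 TPM to 0 within shPCBP1. The incomplete models BCAP29-204, BCAP29-207, BCAP29-210, BCAP29-215 and BCAP29-216 were above 0 in every library. Over all 44441 transcripts with a mean of at least 1 TPM, 6.97% were at 0 in at least 1 library, and 424 were at 0 in exactly 3 of 6, among them 35 at 0 in all shCtrl libraries and 57 at 0 in all shPCBP1 libraries. How far shifts among overlapping models, such as those of BCAP29-203 and BCAP29-213, enter the estimate of BCAP29-211 was not tested.

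**Figure D3:**
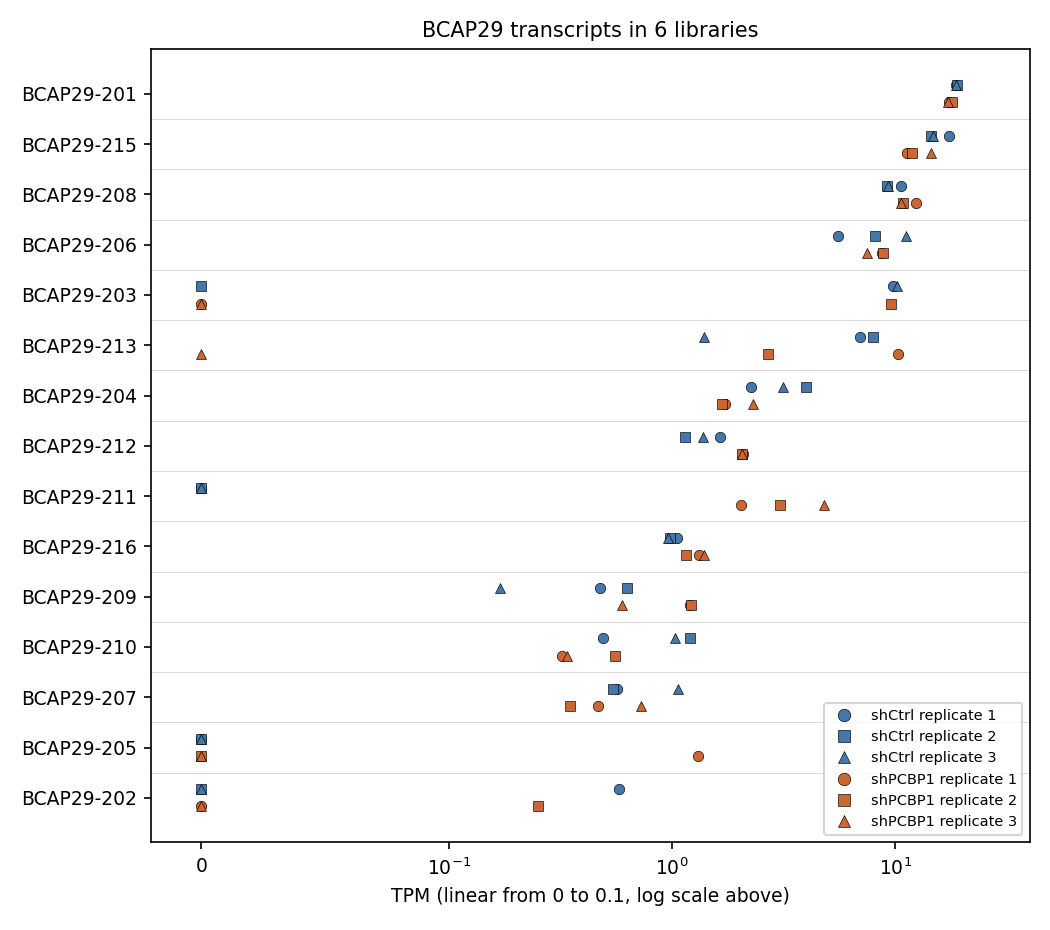
TPM of the 15 BCAP29 transcripts with any estimated expression, on an axis linear up to 0.1 and logarithmic above, with 1 point per library and the groups offset vertically. BCAP29-211 lies at 0 in shCtrl and between 2.03 and 4.81 in shPCBP1, while BCAP29-203 lies at 0 in 1 shCtrl library and 2 shPCBP1 libraries and near 10 in the rest.

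Of the 16 BCAP29 transcripts, 15 had an estimate above 0 in at least 1 library, 10 had one in all libraries, and BCAP29-214 was at 0 throughout. The shPCBP1 libraries lay above all shCtrl libraries for 4 transcripts (BCAP29-208, BCAP29-211, BCAP29-212 and BCAP29-216) and below them for 2 (BCAP29-201 and BCAP29-215). Over all 109762 transcripts with a mean of at least 0.1 TPM in either group, 9.45% lay above and 10.4% below in this way. Of the BCAP29 transcripts, 15 reached that mean. The choice of the exon fixed BCAP29-211 among the 4, so an excess over these percentages was not tested. The remaining BCAP29 models were minor or overlapped between groups, with BCAP29-204 between 1.68 and 3.98 TPM and BCAP29-202, BCAP29-207 and BCAP29-209 at or below 1.22 TPM. By annotated type, the 10 protein-coding transcripts held 86.7%, 84.1% and 94.7% of BCAP29 TPM in shCtrl and 77.1%, 90.1% and 93.5% in shPCBP1. Leaving out shCtrl replicate 3 or shPCBP1 replicate 1 turned the sign of the mean difference of -1.60 percentage points, to 1.498 and 3.30.

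The total of BCAP29 differed little between groups. Normalized counts of BCAP29 (ENSG00000075790, chr7:107580246-107629170) were 6299, 5995 and 6363 in shCtrl and 5885, 5900 and 5584 in shPCBP1, a log2 fold change of -0.10 (SE 0.049). Summed TPM was 76.0, 67.0 and 73.1 in shCtrl and 70.3, 72.0 and 61.9 in shPCBP1. The groups did not overlap in normalized counts and did in TPM.

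BCAP29 shares its exons from the short exon 2 onward with DUS4L-BCAP29, a readthrough gene whose transcripts start at the upstream gene DUS4L, so reads from these exons could not be assigned to 1 gene with certainty. DUS4L-BCAP29 stood at 3495, 3730 and 3591 normalized counts in shCtrl against 4458, 4139 and 4599 in shPCBP1. The log2 rise was 0.29 (SE 0.058), with an adjusted p of 9.28e-06 in the DESeq2 fit (Wald test, Benjamini-Hochberg over all genes), with all knockdown libraries above all controls. Its summed level was 6.54, 7.25 and 6.68 TPM in shCtrl and 8.43, 8.00 and 8.88 TPM in shPCBP1. Its transcript DUS4L-BCAP29-204 joins DUS4L to the short exon 2 and had 3.17, 2.42 and 2.66 TPM in shCtrl and 4.15, 4.93 and 4.68 TPM in shPCBP1. No other readthrough transcript had groups that lay apart. DUS4L-BCAP29-208 was unstable, with 0.227, 2.78 and 1.29 TPM in shCtrl and 1.42, 0.2225 and 0 TPM in shPCBP1. The groups also overlapped for DUS4L-BCAP29-201 and DUS4L-BCAP29-203. DUS4L itself, which encodes a dihydrouridine synthase for tRNA, stood at 0.07 on the log2 scale (SE 0.065) and did not pass (DESeq2 adjusted p 0.468). With readthrough reads added to BCAP29, its log2 fold change was 0.05 (SE 0.039), so the sign of the small difference in BCAP29 depended on how these reads were assigned.

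BCAP31 (ENSG00000185825, chrX:153700492-153724565, minus strand) was the more abundant of the pair, with summed levels of 243.3, 239.2 and 250.3 TPM in shCtrl and 230.4, 243.0 and 234.4 TPM in shPCBP1. Per library it stood at 3.20 to 3.78 times the TPM of BCAP29. Normalized counts were 20096, 18745 and 20241 in shCtrl and 19361, 19860 and 18573 in shPCBP1. The groups overlapped and BCAP31 did not pass the test, at -0.03 on the log2 scale (SE 0.042) and a DESeq2 adjusted p of 0.622.

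The coding sequences of both genes are built alike. BCAP29-201 and the main BCAP31 isoform BCAP31-201 (ENST00000345046.12) each have 7 coding exons, of 92, 101, 151, 136, 109, 101 and 33 bases in BCAP29 and 92, 101, 148, 136, 124, 101 and 36 bases in BCAP31. Over 698 aligned coding bases, 63.9% were identical. In both, the start codon lies in the second exon, behind an intron, with the same 92 coding bases in length in that exon. No annotated BCAP31 transcript with a mean of at least 0.1 TPM skipped its start-codon exon.

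BCAP31-201 had 204.7, 192.9 and 202.1 TPM in shCtrl and 186.4, 198.6 and 183.5 TPM in shPCBP1, and the groups overlapped. It held 84.1%, 80.6% and 80.7% of BCAP31 TPM in shCtrl and 80.9%, 81.7% and 78.3% in shPCBP1. BCAP31-211, a 573-base model that runs on into the intron after the third coding exon, had 18.0, 24.9 and 22.8 TPM in shCtrl and 21.2, 23.6 and 25.2 TPM in shPCBP1. BCAP31-207, which begins at a first exon that adds coding bases before the usual start, had 10.2, 10.1 and 10.9 TPM in shCtrl and 10.1, 9.25 and 9.64 TPM in shPCBP1. BCAP31-206, an incomplete model with another first exon, had 5.28, 5.92 and 7.63 TPM in shCtrl and 7.85, 6.19 and 8.26 TPM in shPCBP1. These ranges overlapped for all of these transcripts, and 0 of 14 BCAP31 transcripts had groups that lay apart.

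Of the 14 BCAP31 transcripts, 13 had an estimate above 0 in some library and 10 entered the transcript test. None passed (edgeR quasi-likelihood test, Benjamini-Hochberg adjusted over 83895 transcripts, of which 1.32% passed), and 0 of the 10 had an unadjusted p under 0.05. DESeq2 and limma also called 0, each with 0 at an unadjusted p under 0.05. The 8 minor transcripts that were named for a mean of at least 0.1 TPM lay at or below 3.15 TPM. Protein-coding transcripts held 92.4%, 89.1% and 90.3% of BCAP31 TPM in shCtrl and 90.7%, 89.8% and 88.4% in shPCBP1. The difference of -0.93 percentage points did not pass an exact permutation test (two-sided p = 0.5, where 3 against 3 libraries allow no p below 0.1).

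**Figure D4:**
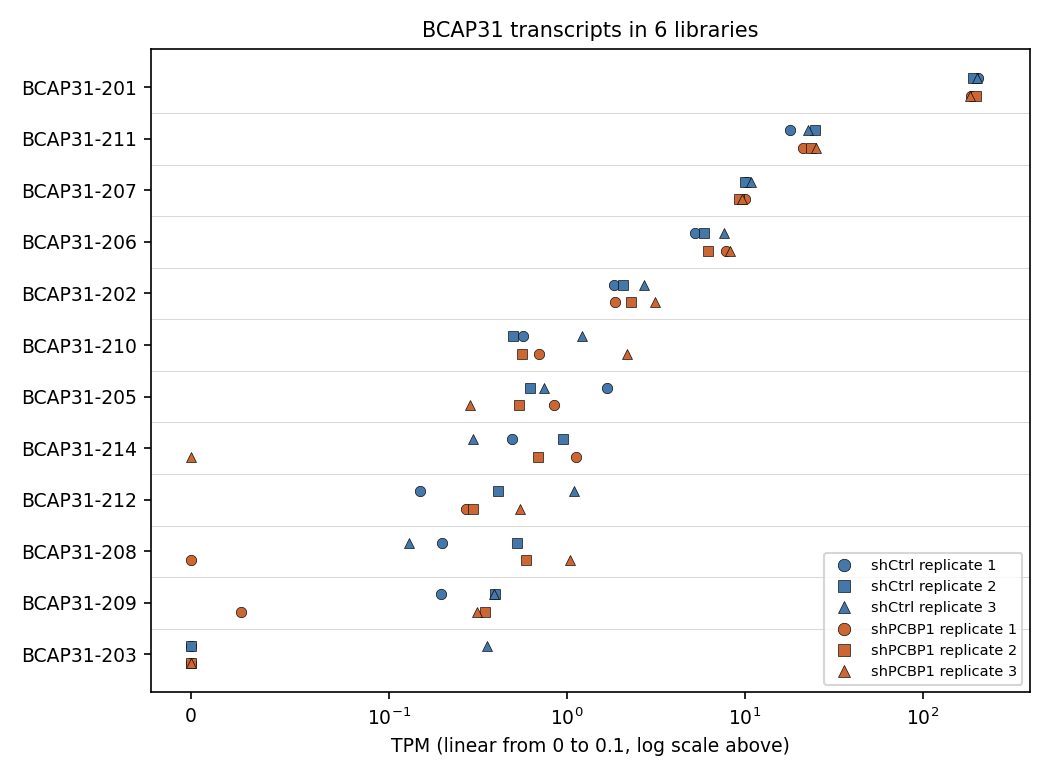
TPM of the 12 BCAP31 transcripts with a mean of at least 0.1 TPM in either group, on an axis linear up to 0.1 and logarithmic above, with 1 point per library and the groups offset vertically. BCAP31-201 lies between 183.5 and 204.7 TPM in all 6 libraries, and the points of the groups overlap in every row.

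Genes whose products bind BAP31 or work beside it were examined by list, and the count of each is set against the 17.7% of all genes that were higher and the 13.5% that were lower. Of 11 BAP31 partners, 4 rose and 0 fell, with a median log2 fold change of 0.18 against 0.00 over all genes. CASP8, the initiator caspase that cleaves BAP31, stood at 1801, 1956 and 1989 normalized counts in shCtrl against 2287, 2539 and 2556 in shPCBP1, and rose by 0.36 (SE 0.074, DESeq2 adjusted p 1.25e-05). CDIP1, a p53 target that signals through BAP31 in ER stress, was scarce, at 100.4, 83.7 and 133.3 normalized counts in shCtrl against 209.1, 191.1 and 210.4 in shPCBP1, a log2 rise of 0.94 (SE 0.246, DESeq2 adjusted p 0.000967). For both genes, every knockdown library lay above every control. TOMM40, the pore of the outer mitochondrial membrane translocase, rose by 0.21 (DESeq2 adjusted p 1.61e-05), and VAMP3, a vesicle SNARE, rose by 0.22 (DESeq2 adjusted p 0.000229). The other 7 did not pass: the anti-apoptotic BCL2 at 0.36 and BCL2L1 at 0.03, FIS1 of mitochondrial fission at -0.01, the translocon subunits SEC61A1 at 0.00 and SEC61B at 0.03, the ER degradation channel protein DERL1 at 0.12 and the fatty acid dehydratase HACD2 at 0.18.

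Over all 7 lists, 25 of 104 genes rose and 12 fell. The median log2 fold change was 0.05, and 1 gene, SLC26A4, also passed the fold threshold in counts, while its TPM overlapped between groups. Without shPCBP1 replicate 2, 23 of the genes passed, with 18 higher and 5 lower. With transcript length offsets 31 passed, with 26 higher and 5 lower, so fewer of the falls were called. Of 16 translocon genes, 3 rose and 0 fell: SSR3 and SSR1 of the translocon-associated complex by 0.14 and 0.12 (DESeq2 adjusted p 0.000544 and 0.0136) and the channel subunit SEC61A2 by 0.34 (DESeq2 adjusted p 0.0202). With transcript length offsets, SSR3 stood at 0.03 and no longer passed (DESeq2 adjusted p 0.808). In TPM, the groups overlapped for SSR3, SSR1 and SEC61A2.

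Of 23 genes for ER quality control and ER-associated degradation, 5 rose and 5 fell. HSP90B1, the ER chaperone GRP94, fell by 0.21 (DESeq2 adjusted p 1.17e-09), and EDEM3 and EDEM1, mannosidase-like proteins that mark glycoproteins for degradation, fell by 0.17 and 0.20 (DESeq2 adjusted p 0.000529 and 0.00586). In TPM, the groups overlapped for EDEM1 and lay apart for HSP90B1 and EDEM3. The ubiquitin-binding NPLOC4 rose by 0.15 (DESeq2 adjusted p 4.44e-05), the ligase adaptor SEL1L by 0.20 (DESeq2 adjusted p 0.00184) and the lectin chaperone calnexin, CANX, by 0.10 (DESeq2 adjusted p 0.0162). Of 28 genes for transport between ER and Golgi, 6 rose and 3 fell. The cargo receptors SURF4 and MCFD2 rose by 0.21 and 0.17 (DESeq2 adjusted p 8.74e-08 and 3.38e-06) and the COPII coat gene SEC31A by 0.15 (DESeq2 adjusted p 0.000104). The retrieval receptor KDELR3 fell by 0.29 (DESeq2 adjusted p 0.00626), and the COPI coat genes COPB1 and COPG1 fell by 0.10 and 0.11 (DESeq2 adjusted p 0.0146 and 0.0251). In TPM, the groups overlapped for KDELR3, COPB1 and COPG1 and lay apart for SURF4, MCFD2 and SEC31A.

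Of 16 genes of the unfolded protein response, 4 rose and 1 fell. PPP1R15A, which restores translation after stress, rose by 0.30 (DESeq2 adjusted p 5.83e-11), the ER stress sensor ATF6 by 0.23 (DESeq2 adjusted p 5.89e-06) and the chaperone cofactor SDF2L1 by 0.19 (DESeq2 adjusted p 0.000255), while the proapoptotic factor DDIT3 fell by 0.30 (DESeq2 adjusted p 0.0202). DDIT3 stood at 2123, 2898 and 2056 normalized counts in shCtrl and 1756, 1916 and 2054 in shPCBP1. Its groups were barely apart, and shCtrl replicate 2 was by far the highest. Of 11 genes of MHC class I assembly, whose product is a known cargo of BAP31, 10 received an adjusted p, 3 rose and 2 fell. The peptide transporter TAP2 rose by 0.26 (DESeq2 adjusted p 1.83e-07), the peptidase ERAP1 by 0.14 (DESeq2 adjusted p 0.0186) and the chaperone CALR by 0.11 (DESeq2 adjusted p 0.0201), and the light chain B2M fell by 0.16 (DESeq2 adjusted p 0.000352) and the oxidoreductase PDIA3 by 0.11 (DESeq2 adjusted p 0.026). For ERAP1 the groups overlapped in TPM, while they lay apart for TAP2, CALR, B2M and PDIA3.

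Of the 8 genes examined next to either member, 2 rose and 2 fell. Beside BCAP29, SLC26A4, an anion exchanger, was scarce and stood at 33.7, 90.2 and 42.7 normalized counts in shCtrl against 136.0, 117.5 and 98.3 in shPCBP1. Its log2 rise in counts was 1.1 (SE 0.378, DESeq2 adjusted p 0.0148). In TPM it had 0.09, 0.88 and 0.12 in shCtrl and 0.37, 0.33 and 0.41 in shPCBP1, and the groups overlapped. The other riser was DUS4L-BCAP29. COG5, of the Golgi tethering complex, stood at 0.10 and did not pass (DESeq2 adjusted p 0.0581). Beside BCAP31, the creatine transporter gene SLC6A8 stood at 14286, 14317 and 13600 normalized counts in shCtrl against 12120, 11272 and 12022 in shPCBP1, with the groups apart, and fell by 0.25 (SE 0.043, DESeq2 adjusted p 5.82e-08). The plexin gene PLXNB3 fell by 0.67 (DESeq2 adjusted p 0.026). IDH3G and SSR4 stood at -0.13 and 0.00 and did not pass (DESeq2 adjusted p 0.0619 and 0.986).

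**Figure D5:**
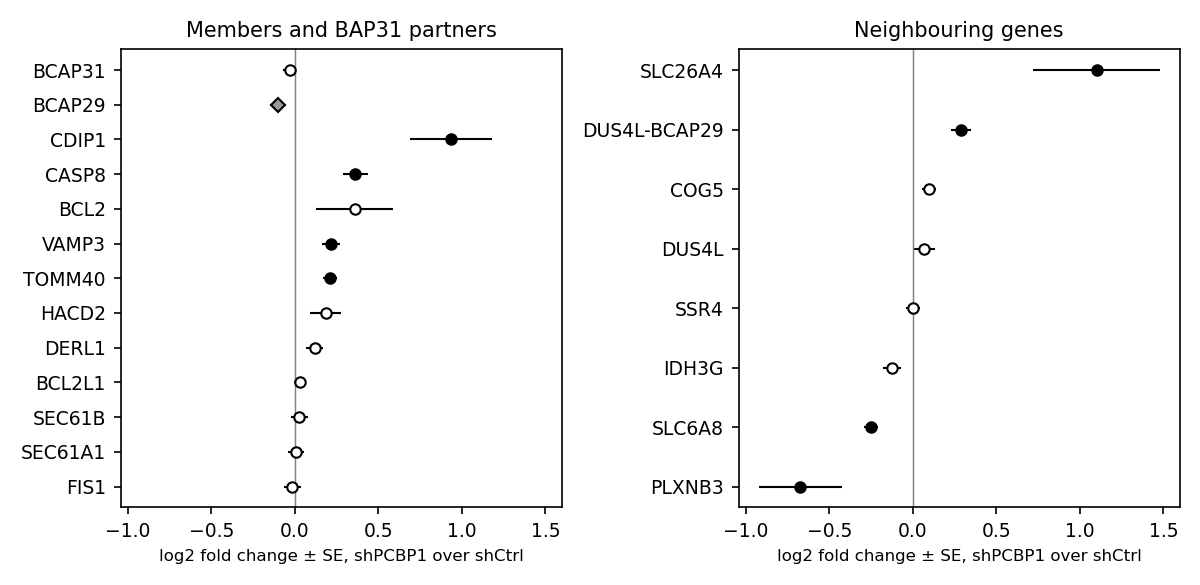
Log2 fold change of shPCBP1 over shCtrl with its SE, from the DESeq2 fit over all genes, for BCAP31, BCAP29 and the 11 BAP31 partners at the left and the 8 neighbouring genes at the right. Filled circles passed an adjusted p under 0.05, open circles did not, and the grey diamond marks BCAP29, which was chosen on this comparison and not tested; 4 partners rose and BCAP31 lay at -0.03.

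Across the 6 libraries, the genes whose log2 normalized counts followed BCAP29 most closely among 14180 with a mean of at least 100 were HSPD1 (Pearson r = 0.995), NRIP2 (r = 0.995) and GLRX (r = 0.994). Those closest to BCAP31 were GGNBP2 (r = 0.988), ZNF385D-AS1 (r = 0.979) and ICAM3 (r = 0.977), and BCAP29 and BCAP31 had r = 0.801 with each other. These values describe 6 libraries that fall into 2 groups, and each library's counts share 1 depth and 1 size factor.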

How the data were processed

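PolyA RNA of K562 was sequenced by the authors (paired end) in 6 libraries, and the authors quantified transcripts with Salmon 1.10.2. The deposited estimated counts carry no normalization and can be fractional. The deposited TPM values were scaled by the authors' software for effective transcript length and sum to 1000000 per library. The annotation release behind the index is not given in the sources used here. GENCODE release 44 on GRCh38 matched 251612 of 252045 transcripts, and the unmatched ones, at most 0.147% of counts, were left out. Reads over splice junctions were not used here, so exon use rests on transcript estimates.

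Transcript counts were added up within each gene, rounded, and tested where their total reached 10 with DESeq2 1.42.0 (Wald test, group as the only term), which follows the study's methods. Rounded transcript counts were tested with edgeR 4.0.16 (quasi-likelihood, filterByExpr, TMM). Both are two-sided and were tested on simulated data. Other versions were R 4.3.3, limma 3.58.1 and Python 3.11.15. Missing adjusted p-values were kept missing. Libraries within a group were distinct (chi-square over degrees of freedom from 6.19 to 15.1). Depth was lowest in shPCBP1 replicate 3. Transcript estimates carry assignment error as well as counting error.

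The members and gene lists were chosen with earlier results of these data known. Named were PCBP1, the neighbours, all BAP31 partners, up to 3 genes that rose and 3 that fell with the lowest adjusted p in each other list, transcripts with the exon or a mean of at least 0.1 TPM in either group, and the 3 genes most correlated with each member. Transcripts outside this rule are named where a count is spelled out. Alternatives covered the tool, normalization, count filters, length offsets, a replicate block, the denominator of the exon share and leaving out each library. Protein sequences were not used here, and 1 neighbouring gene is not reported here.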

Additional observations from a re-analysis of the deposited data

How the results depend on the processing

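The share of the long BCAP29 exon 2 depended most on its denominator. Its mean difference of 20.6 percentage points became 4.96 over all BCAP29 transcripts and, in alternatives chosen after seeing the data, 9.42 against the short exon 2, 7.01 over all transcripts with exon 2 and 7.38 when every transcript covering the added bases was counted. Estimated counts gave 15.8, and leaving out 1 library gave 16.6 to 24.4. The log2 fold change of BCAP29 went from -0.10 to 0.052 with readthrough reads added and stayed between -0.13 and -0.06 under the other alternatives. BCAP31 passed under none of the gene alternatives, with an adjusted p between 0.214 and 0.936. The cassette exons at 0 in shCtrl numbered 6, or 1 at a total of at least 5 TPM and 17 with a share over 1%, against 1 and 30 in the opposite direction.

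The transcript test called 1108 transcripts, and 9169 with DESeq2, 1664 with limma on log2(TPM + 0.1), 683 with a summed count of at least 10 in place of filterByExpr, and 37 to 275 without 1 library. With the replicate number as a replicate block it called 0, with 8933 at an unadjusted p under 0.05. Deviations from the group mean had correlations of 0.094, -0.0203 and -0.105 between libraries with the same number. With 3 libraries per group, these values cannot show whether such libraries were handled together. The genes called with the fold threshold numbered 235, or 148 with the replicate block and 149 to 253 without 1 library. The block changed no call of BCAP31 or of the named genes refitted (DUS4L-BCAP29, SLC6A8, CASP8, TOMM40, VAMP3, CDIP1 and SSR3). Of the listed genes, 37 passed, with 25 higher and 12 lower, and 23 to 37 passed without 1 library. With length offsets 26 were higher and 5 lower. Of 84 refits of these named genes, 83 kept their direction and call, and SSR3 lost its call with length offsets. Among these genes only SLC6A8 fell, so the calls of the other listed falls were not followed individually.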
